A study of Mus musculus with 8 samples.

Results

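The genes described here mark neurons that release GABA, the main inhibitory transmitter of the brain, and make or package that transmitter. They are the 8 rows of the deposited count table named Gad1, Gad2, Slc32a1, Pvalb, Lhx6, Dlx1, Dlx2 and Erbb4, out of 17613 genes, and all 8 passed the filter on low counts that left 15902 genes for testing. The rule takes them by name, and the list of names was drawn up with earlier results of these data known. The series sequenced polyadenylated brain RNA of C57BL/6 mice, with 4 wild type libraries (labelled WT) and 4 libraries of the Uhrf2 knockout (labelled KO). The product of Uhrf2 is a chromatin protein that recognises modified cytosines, and the title of the series ties it to local DNA methylation and to spontaneous seizures. The labels give no other allele, treatment, age or brain region, and do not say how the knockout was made or whether each library is a separate animal. The p-values below therefore measure the spread between these libraries, which may be technical.

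GABA is made from glutamate by the glutamate decarboxylases, which Gad1 and Gad2 encode, and is loaded into synaptic vesicles by the vesicular inhibitory amino acid transporter, the product of Slc32a1. DLX1 and DLX2 are homeodomain transcription factors that specify forebrain GABAergic neurons, and LHX6 acts after them in interneurons born in the medial ganglionic eminence. Parvalbumin, from Pvalb, is the calcium buffer of fast-spiking interneurons, and in whole brain it also comes from cerebellar Purkinje cells. ERBB4 is a receptor for neuregulins that cortical interneurons carry. Striatal projection neurons, Purkinje cells and granule cells of the olfactory bulb are GABAergic too, so brain RNA can mix many sources of these transcripts.

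Libraries held 11891350 to 19773921 counts. Values are CPM, counts scaled to a common library size, with sizes adjusted by the trimmed mean of M-values (TMM). The targeted gene goes against the labels: Uhrf2 stood at 55.4 ± 5.22 CPM in the group labelled WT and at 88.8 ± 2.23 CPM in the group labelled KO (SD, n = 4 each), and the groups did not overlap. Every direction below is therefore that of the libraries labelled KO against those labelled WT, and the table does not show whether the counted Uhrf2 reads cover the altered part of the gene. All 7 whole brain markers, of which Gad1 is itself a member, passed the filter on low counts. So did 15902 of all 17613 genes, so this alone does not check the brain label. Snap25, a synaptic protein of neurons, was at 2451 ± 107 CPM in the WT group (SD, n = 4). Of 13 markers of choroid plexus, pituitary, blood, liver, muscle and skin, 4 (Alb, Actc1, Myh1 and Krt5) have no row in the table, Gh and Prl were too low to be tested, and the 9 in the table summed to 868 to 1217 CPM in the libraries labelled WT and 858 to 1022 CPM in those labelled KO. Nearly all of that sum was Ttr, a transport protein made by the choroid plexus, at 959 ± 138 and 881 ± 71.2 CPM (SD, n = 4 each, adjusted p = 0.723). Kl, another choroid plexus gene, was at 32.1 ± 4.49 and 28.6 ± 1.98 CPM (adjusted p = 0.460).

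The members lie on 3 chromosomes of GRCm38 (GENCODE M21), and 6 of them on chromosome 2. Gad1 spans chr2:70553072-70602014 on the plus strand, Gad2 chr2:22622205-22693874 on the plus strand and Slc32a1 chr2:158610767-158615748 on the plus strand. Lhx6 spans chr2:36081953-36105408 on the minus strand. Dlx1, at chr2:71528113-71533981 on the plus strand, and Dlx2, at chr2:71543408-71546754 on the minus strand, are neighbours that point towards each other. Pvalb spans chr15:78191114-78206400 on the minus strand, and Erbb4, the longest of the 8, spans chr1:68032186-69108059 on the minus strand. Their principal protein-coding transcripts, which serve below as gene lengths, run from 977 bases in 4 exons for Pvalb to 11782 bases in 28 exons for Erbb4.

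Because the targeted protein binds modified cytosine, the density of CG pairs before the start sites is given as context. DNA methylation was not measured in these libraries, and nothing about it can be read from these letters. All 8 members matched the RefSeq promoter table (GRCm38.p6), which gives 11 start sites for them. In the 250 bases before each start, the members held from 4 to 24 CG pairs, against a median of 6, with quartiles of 2 and 16, over 32526 promoter windows. The windows with the fewest and the most CG pairs are printed with one between them, each taken from the start farthest upstream and each free of annotated exons, 5′ to 3′ on the strand of the gene, with CG pairs in capitals.
Pvalb promoter, chr15:78206401-78206650, minus strand: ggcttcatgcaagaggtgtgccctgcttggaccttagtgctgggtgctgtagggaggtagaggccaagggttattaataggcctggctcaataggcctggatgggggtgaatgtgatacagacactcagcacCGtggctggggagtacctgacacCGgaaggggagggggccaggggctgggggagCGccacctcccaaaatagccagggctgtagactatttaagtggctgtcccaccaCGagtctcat
Lhx6 promoter, chr2:36105409-36105658, minus strand: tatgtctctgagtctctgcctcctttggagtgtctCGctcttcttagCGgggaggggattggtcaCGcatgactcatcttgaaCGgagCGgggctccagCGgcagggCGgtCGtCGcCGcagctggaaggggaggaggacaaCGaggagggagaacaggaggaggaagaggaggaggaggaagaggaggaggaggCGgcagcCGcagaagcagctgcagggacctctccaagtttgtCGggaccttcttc
Dlx2 promoter, chr2:71546755-71547004, minus strand: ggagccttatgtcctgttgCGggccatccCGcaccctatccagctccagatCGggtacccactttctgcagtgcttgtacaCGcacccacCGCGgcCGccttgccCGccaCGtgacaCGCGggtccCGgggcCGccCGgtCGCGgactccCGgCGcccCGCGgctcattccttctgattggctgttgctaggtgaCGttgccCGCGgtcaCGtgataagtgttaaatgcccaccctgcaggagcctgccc
The printed Pvalb window holds 4 CG pairs, and 37.4% of all promoter windows hold fewer. The window of the other Pvalb start holds 23 (86.6% hold fewer). The printed Lhx6 window has 14 (70.4% hold fewer), and those of its other starts have 7 and 17. Dlx2 has 24 (87.9% hold fewer). The homeodomain core TAATTA, searched on both strands, was in none of the members' 11 windows and in 4.84% of all windows. The E-box CACGTG, a palindrome, occurred at 2 places in the Dlx2 window and in 6.04% of all windows.

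Measured per kilobase of transcript, the members covered a wide range of levels. Gad1 (179 CPM per kb, mean of 8 libraries) and Pvalb (171 CPM per kb) stood at the top. Gad2 (52.4 CPM per kb) and Slc32a1 (50.5 CPM per kb) formed the next pair. The transcription factors and the receptor were lower, with Dlx1 at 11.9, Erbb4 at 6.24, Lhx6 at 4.36 and Dlx2 at 2.89 CPM per kb. Gad1 and Pvalb did not differ beyond their spread, since the 8 libraries ran from 156 to 199 CPM per kb for Gad1 and from 158 to 183 for Pvalb, and Gad1 was the higher in 5 of 8. With the union of all annotated exons as the length, a choice made after the data were seen, Pvalb at 161 CPM per kb stood above Gad1 at 78.7 in 8 of 8 libraries. Gad2 and Slc32a1 overlapped as well, from 48.4 to 58.9 and from 46.9 to 54.7 CPM per kb. Ranks 5 to 8 were the same in each of the 8 libraries and with either length.

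**Figure D1:**
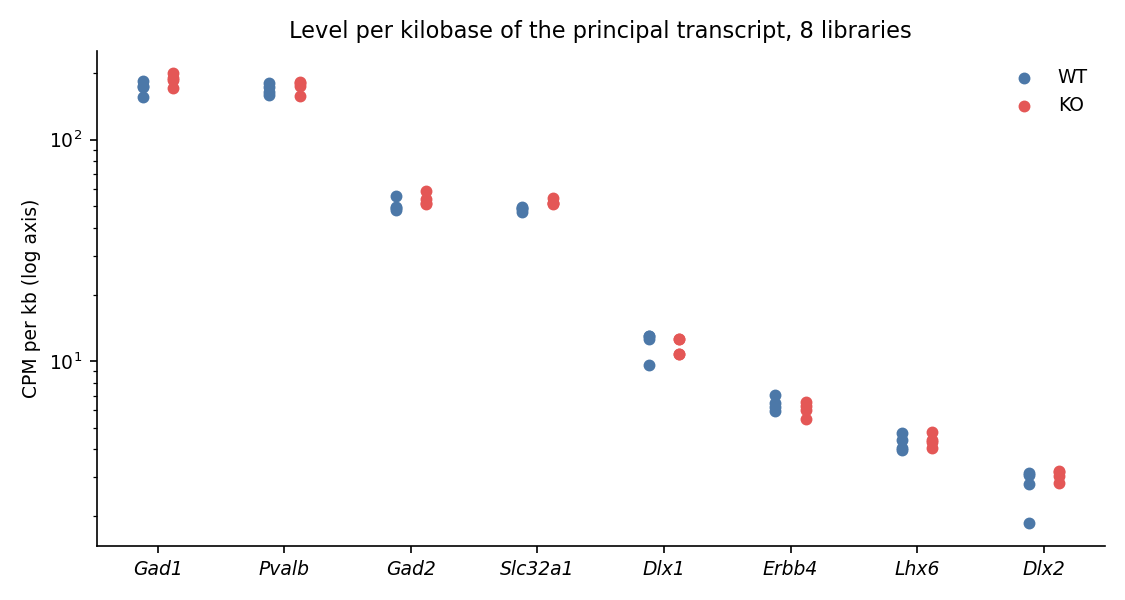
Level of each gene in CPM per kilobase of its principal transcript (log axis), with 1 point per library, blue for WT and red for KO. Gad1 and Pvalb overlap near 171 to 179, Gad2 and Slc32a1 overlap near 51 to 52, and Dlx2 is the lowest at 2.89.

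None of the 8 genes passed the threshold between the groups (p under 0.05 by the quasi-likelihood test of edgeR, adjusted over all tested genes after Benjamini and Hochberg), where 1.43% of all tested genes did. DESeq2 and limma-voom also called 0 of 8. At an unadjusted p under 0.05 there were 2, Gad1 and Slc32a1, against 12.6% of all tested genes. Fitted changes were positive for 6 members and negative for 2, with a median log2 fold change of 0.07, and the median over all tested genes was -0.0049. Intervals bound what these libraries leave in: the 95% interval of the fold change was 1.01 to 1.17 for Gad1 and 1.02 to 1.14 for Slc32a1. In brain RNA that mixes cell types, fewer cells of a type and less RNA per cell cannot be told apart.

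**Figure D2:**
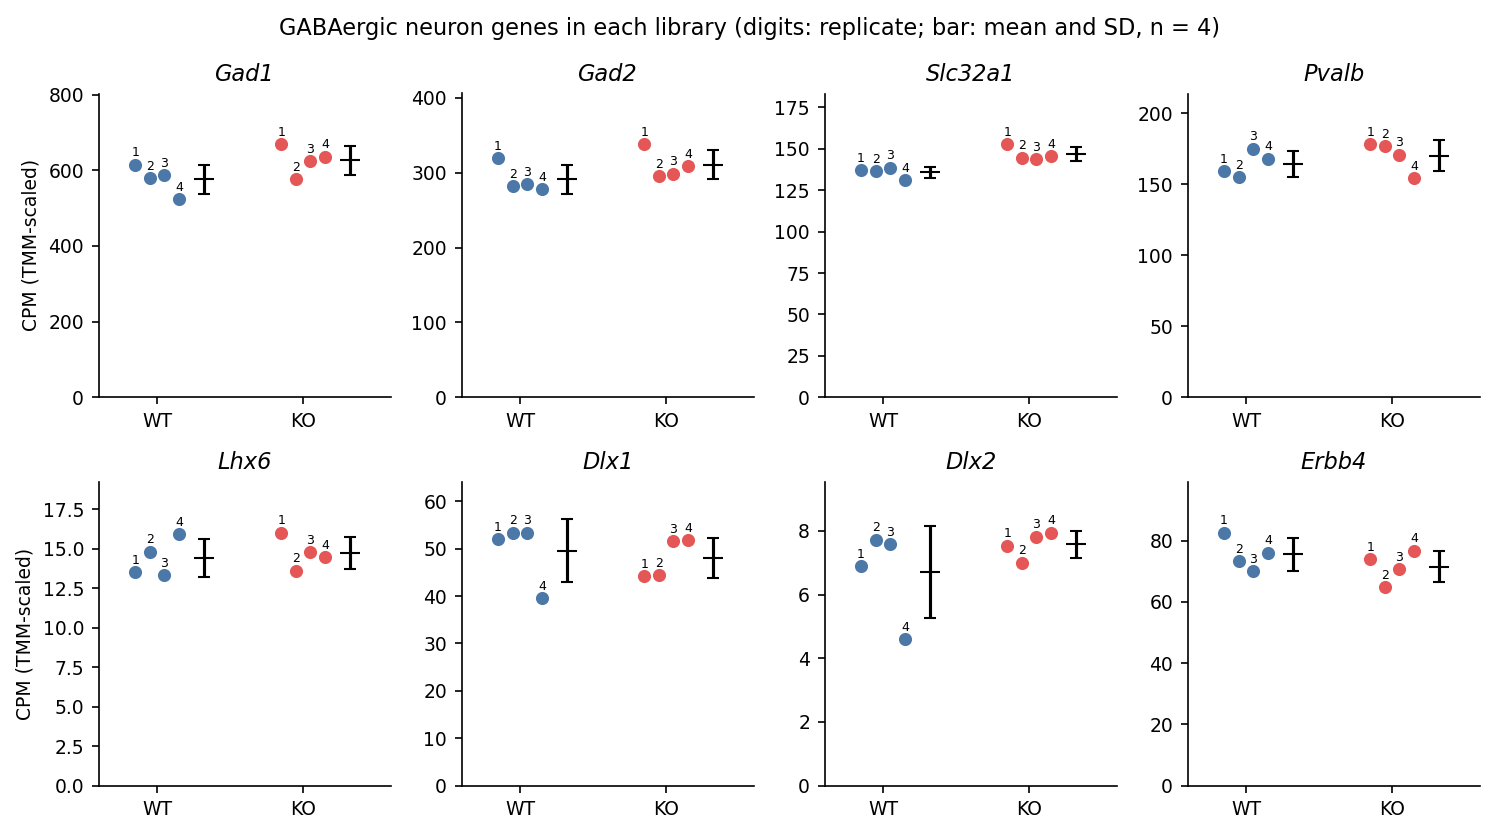
CPM of each gene in each library, with 1 panel per gene and an axis from 0; digits give the replicate number, and the bar beside each group is its mean and SD (n = 4). The groups overlap in every panel but that of Slc32a1, and replicate 4 of WT is the lowest of its group for Dlx1 and Dlx2.

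The enzymes come first. Gad1, whose enzyme is present throughout the neuron and makes most of the brain's GABA, was at 615, 579, 587 and 524 CPM in WT replicates 1 to 4 and at 669, 576.5, 623 and 636 CPM in KO replicates 1 to 4. All but replicate 2 of the libraries labelled KO lay above the highest WT library, and the groups overlapped through that replicate. Means were 576 ± 38.1 and 626 ± 38.3 CPM (SD, n = 4), with a log2 fold change of 0.12 (SE 0.05, adjusted p = 0.327). Leaving out KO replicate 2 gave 0.16 (adjusted p = 0.103), and leaving out WT replicate 4 gave 0.08 (adjusted p = 0.569).

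Gad2, whose enzyme is concentrated at nerve terminals, was at 319, 282, 285 and 278 CPM in the libraries labelled WT and at 338, 295, 299 and 309 CPM in those labelled KO. Only KO replicate 1 exceeded the highest WT library, and replicate 1 was the highest of each group. Its log2 fold change was 0.09 (SE 0.05, 95% interval -0.01 to 0.20, adjusted p = 0.472). The fit without KO replicate 1 gave 0.05 and that without WT replicate 1 gave 0.14, with adjusted p of 0.775 and 0.201. Per kilobase, Gad1 exceeded Gad2 by 3.39 ± 0.15 times in the libraries labelled WT and by 3.46 ± 0.11 times in those labelled KO (SD, n = 4 each), so the balance of the 2 enzymes' transcripts differed by less than the spread between libraries.

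Slc32a1, the vesicular transporter, was the most even of the 3 genes of GABA production and packaging. It was at 137, 137, 139 and 131 CPM in the libraries labelled WT and at 153, 145, 144 and 146 CPM in those labelled KO. All 4 libraries labelled KO lay above all 4 labelled WT, which was so for 1 of the 8 members, against 7.67% of all tested genes, 4.28% with the libraries labelled KO higher and 3.4% with them lower. Means were 136 ± 3.19 and 147 ± 4.18 CPM (SD, n = 4), a log2 fold change of 0.11 (SE 0.04, adjusted p = 0.241). Relative to Gad1 per kilobase, Slc32a1 was at 0.283 ± 0.014 and 0.282 ± 0.013 (SD, n = 4 each). An antisense gene, Gm14205, overlaps Slc32a1 over 911 bases on the opposite strand. The kit marks strand, but the strand setting of the counting is not given in the sources used here. Reads of the pair may therefore have been shared out between them. Gm14205 had 21.1% as many counts as Slc32a1 and stood at 28.4 ± 0.41 and 31.2 ± 1.90 CPM in the groups labelled WT and KO (SD, n = 4; log2 fold change 0.13, adjusted p = 0.353). Their sum did not overlap between the groups either, at 160 to 167 CPM in the libraries labelled WT and 173 to 187 CPM in those labelled KO.

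The 16 genes that supply, take up or break down GABA and its precursors were all tested, and 0 passed in either direction (0 also at an unadjusted p under 0.05 by edgeR, and 0 by DESeq2 and limma-voom). Fitted changes were positive for 5 and negative for 11, with a median log2 fold change of -0.02. Abat, the transaminase that degrades GABA, was at 478 ± 8.01 and 490 ± 11.9 CPM (SD, n = 4) and was named after its value was seen. Among the 16, the lowest p belonged to Pdxk, the kinase that makes the pyridoxal phosphate cofactor of the decarboxylases (log2 fold change 0.08, adjusted p = 0.470), followed by Slc38a5, a glutamine transporter (log2 fold change -0.28, adjusted p = 0.611; -0.42 without KO replicate 1 and -0.12 without KO replicate 3).

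Of the transcription factors, Dlx1 was at 52.1, 53.4, 53.4 and 39.6 CPM in the libraries labelled WT and at 44.2, 44.4, 51.6 and 51.8 CPM in those labelled KO. WT replicate 4 was the lowest of all 8 libraries, and the groups overlapped. The log2 fold change of -0.05 (SE 0.09, adjusted p = 0.900) became -0.14 (unadjusted p = 0.0466, adjusted p = 0.404) once WT replicate 4 was left out. It shrank to between -0.01 and -0.0027 without WT replicate 2 or 3 or without KO replicate 1 or 2, so its size depended on which library was left out. Dlx1 shares its whole span of 5869 bases with an antisense gene, listed as Dlx1os, which had 6.99% as many counts (3.39 ± 0.33 and 3.43 ± 0.47 CPM, SD, n = 4).

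Dlx2 was at 6.90, 7.72, 7.59 and 4.60 CPM in the libraries labelled WT and at 7.53, 7.01, 7.82 and 7.95 CPM in those labelled KO. Here too WT replicate 4 was the lowest of the 8, and the other 3 WT libraries lay within the KO range or just under it. With all libraries its log2 change came to 0.17 (SE 0.14, adjusted p = 0.663), and without WT replicate 4 it was 0.03 (adjusted p = 0.953). Per kilobase, Dlx1 stood above Dlx2 by 4.16 to 5.18 times in the libraries labelled WT and by 3.53 to 3.97 times in those labelled KO. This ratio did not overlap between the groups, alone among the ratios of members worked out here, and it was not tested. No share over other pairs of genes was worked out.

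Lhx6 was at 13.5, 14.8, 13.3 and 15.9 CPM in the libraries labelled WT and at 16.03, 13.6, 14.8 and 14.5 CPM in those labelled KO. The groups covered nearly the same range. Its log2 fold change of 0.03 (SE 0.08, 95% interval -0.14 to 0.21, adjusted p = 0.930) turned to -0.0069 without WT replicate 3 and to -0.0084 without KO replicate 1.

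Of 23 other transcription factors of GABAergic neurons, 21 were tested and 0 passed in either direction by edgeR (2 at an unadjusted p under 0.05, and 0 by DESeq2 and limma-voom). Fitted changes were positive for 8 and negative for 13, with a median log2 fold change of -0.05. Nr2f2, which marks interneurons of the caudal ganglionic eminence, had the lowest p and was at 26.4 ± 2.13 and 23.0 ± 1.69 CPM (SD, n = 4; log2 fold change -0.20, adjusted p = 0.234). Dlx5 and Dlx6, the other DLX pair of the forebrain, were at 5.86 ± 0.59 and 9.57 ± 0.80 CPM in the libraries labelled WT and at 6.72 ± 0.70 and 10.9 ± 1.02 CPM in those labelled KO (adjusted p = 0.549 and 0.457), and were picked after their values were seen, as the paralogues of Dlx1 and Dlx2.

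**Figure D3:**
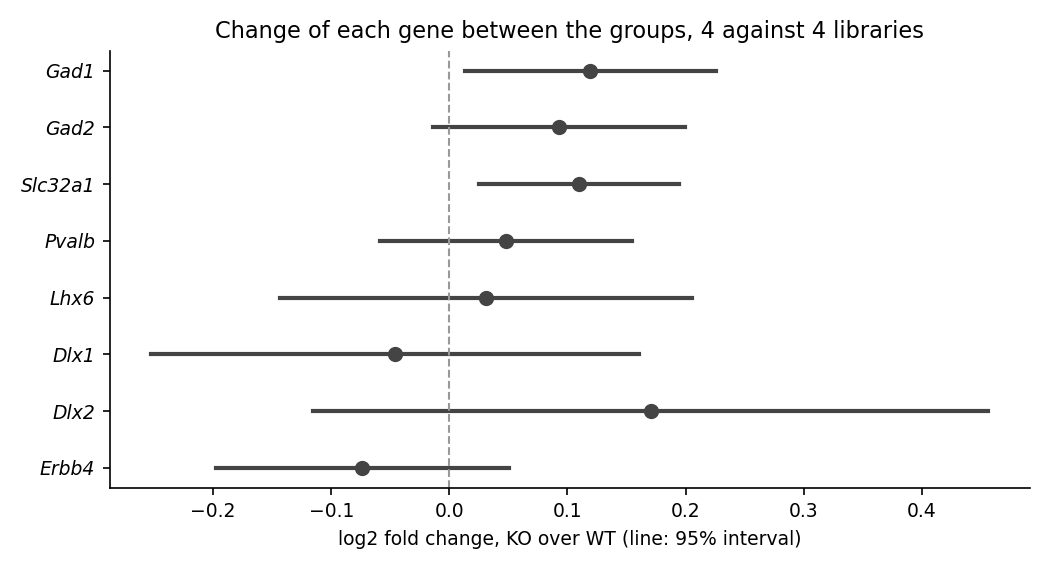
Log2 fold change of each gene, libraries labelled KO over those labelled WT, with its 95% interval from the fit over all genes (4 against 4 libraries). The intervals of Gad1 and Slc32a1 lie just above 0, the other 6 include 0, and that of Dlx2 is the widest, from -0.12 to 0.46.

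Pvalb was at 160, 155, 175 and 168 CPM in the libraries labelled WT and at 178, 177, 171 and 155 CPM in those labelled KO. Each group held both low and high libraries, and their ranges overlapped over most of their length. Between the groups the log2 fold change came to 0.05 (SE 0.05, 95% interval -0.06 to 0.16, adjusted p = 0.766). With 1 library left out it ranged from 0.02 (WT replicate 2) to 0.09 (KO replicate 4), and was 0.03 without KO replicate 1 or 2 and 0.08 without WT replicate 3. Per kilobase, the ratio of Pvalb to Lhx6, which both mark interneurons of the medial ganglionic eminence, was 39.3 ± 4.31 and 39.6 ± 3.42 (SD, n = 4 each).

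The 16 genes typical of fast-spiking cells gave 0 calls in either direction by edgeR and limma-voom, with 4 at an unadjusted p under 0.05 and 1 call by DESeq2. Their changes were positive for 10 and negative for 6, with a median log2 fold change of 0.04. The DESeq2 call was Hapln4, a link protein of perineuronal nets, at 145 ± 4.03 and 160 ± 3.07 CPM (SD, n = 4; log2 fold change 0.14, adjusted p = 0.0916 by edgeR and 0.0349 by DESeq2). Tnfaip8l3 rested partly on KO replicate 1, at 9.10 CPM against 7.03 to 7.08 CPM in the other libraries labelled KO (log2 fold change 0.43, adjusted p = 0.109). Kcnc1 and Kcnc2, potassium channels that permit fast firing, were at 340 ± 10.5 and 118 ± 8.88 CPM in the libraries labelled WT and at 343 ± 15.01 and 116 ± 4.65 CPM in those labelled KO, and were picked as examples after their values were seen.

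Among 23 markers of interneuron subclasses, 1 rose and 0 fell, and 1.14% of all tested genes rose and 0.289% fell. The gene that rose was Npy, which encodes neuropeptide Y and is released by a subset of interneurons. It was at 36.1, 39.2, 36.9 and 34.3 CPM in the libraries labelled WT and at 42.1, 44.1, 47.1 and 45.7 CPM in those labelled KO, without overlap. Its log2 fold change was 0.29 (SE 0.06, adjusted p = 0.0118), and without KO replicate 3 the adjusted p was 0.0665. The list's changes were positive for 14 and negative for 9, with a median of 0.06. Sst, the somatostatin gene of another large class from the medial ganglionic eminence, was at 112 ± 4.50 and 118 ± 6.86 CPM (SD, n = 4; log2 fold change 0.08, adjusted p = 0.547), and Vip, a marker of caudal ganglionic eminence cells, at 21.3 ± 1.97 and 22.2 ± 1.58 CPM (log2 fold change 0.07, adjusted p = 0.780); both were picked after their values were seen.

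Erbb4 was at 82.7, 73.3, 70.0 and 76.1 CPM in the libraries labelled WT and at 74.0, 64.8, 70.8 and 76.8 CPM in those labelled KO. The highest library was WT replicate 1 and the lowest KO replicate 2, and the remaining 6 were interleaved. Its log2 fold change was -0.07 (SE 0.06, 95% interval -0.20 to 0.05, adjusted p = 0.664), and it came to -0.03 without WT replicate 1 and again without KO replicate 2. Relative to Gad1 per kilobase, Erbb4 was at 0.0374 ± 0.0032 (0.0339 to 0.0413) in the libraries labelled WT and at 0.0326 ± 0.0013 (0.0315 to 0.0344) in those labelled KO (SD, n = 4 each), and the ranges overlapped.

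Of 15 neuregulins, ERBB receptors and proteins that process or anchor them, 13 were tested and 0 passed by edgeR, DESeq2 or limma-voom, with 3 at an unadjusted p under 0.05. The split was 7 positive to 6 negative, with a median log2 fold change of 0.01 that moved to 0.04 without WT replicate 4. The neuregulin ligands Nrg1 and Nrg3 were at 4.73 ± 0.49 and 27.8 ± 1.204 CPM in the libraries labelled WT and at 4.93 ± 0.56 and 29.9 ± 3.41 CPM in those labelled KO, named after their values were seen. The lowest p-values of the list belonged to Hbegf, a ligand of EGFR and ERBB4 (log2 fold change 0.20, adjusted p = 0.296), and to Erbin, listed as Erbb2ip, a scaffold that binds ERBB2 (log2 fold change -0.10, adjusted p = 0.330).

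On the receiving side of GABAergic synapses, all 11 genes listed for the inhibitory postsynapse were tested, and 1 rose and 0 fell. Of all tested genes, 1.14% rose and 0.289% fell. In the list, 3 genes had an unadjusted p under 0.05 by edgeR, against 12.6% of all tested genes. The groups did not overlap for 3 genes of the list, against 7.67% of all tested genes. Iqsec3, an exchange factor that binds gephyrin, was at 260, 282, 272 and 262 CPM in the libraries labelled WT and at 302, 311, 294 and 336 CPM in those labelled KO. The groups did not overlap (log2 fold change 0.21, SE 0.04, adjusted p = 0.0222). The call was lost without WT replicate 1, 3 or 4, with adjusted p of 0.0546, 0.0600 and 0.0762, and without KO replicate 4, with 0.0927. The list's changes were positive for 9 of 11, with a median of 0.05. Gphn, the gephyrin scaffold itself, was at 79.3 ± 0.63 and 81.3 ± 3.75 CPM (SD, n = 4; adjusted p = 0.798) and was named after its value was seen.

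**Figure D4:**
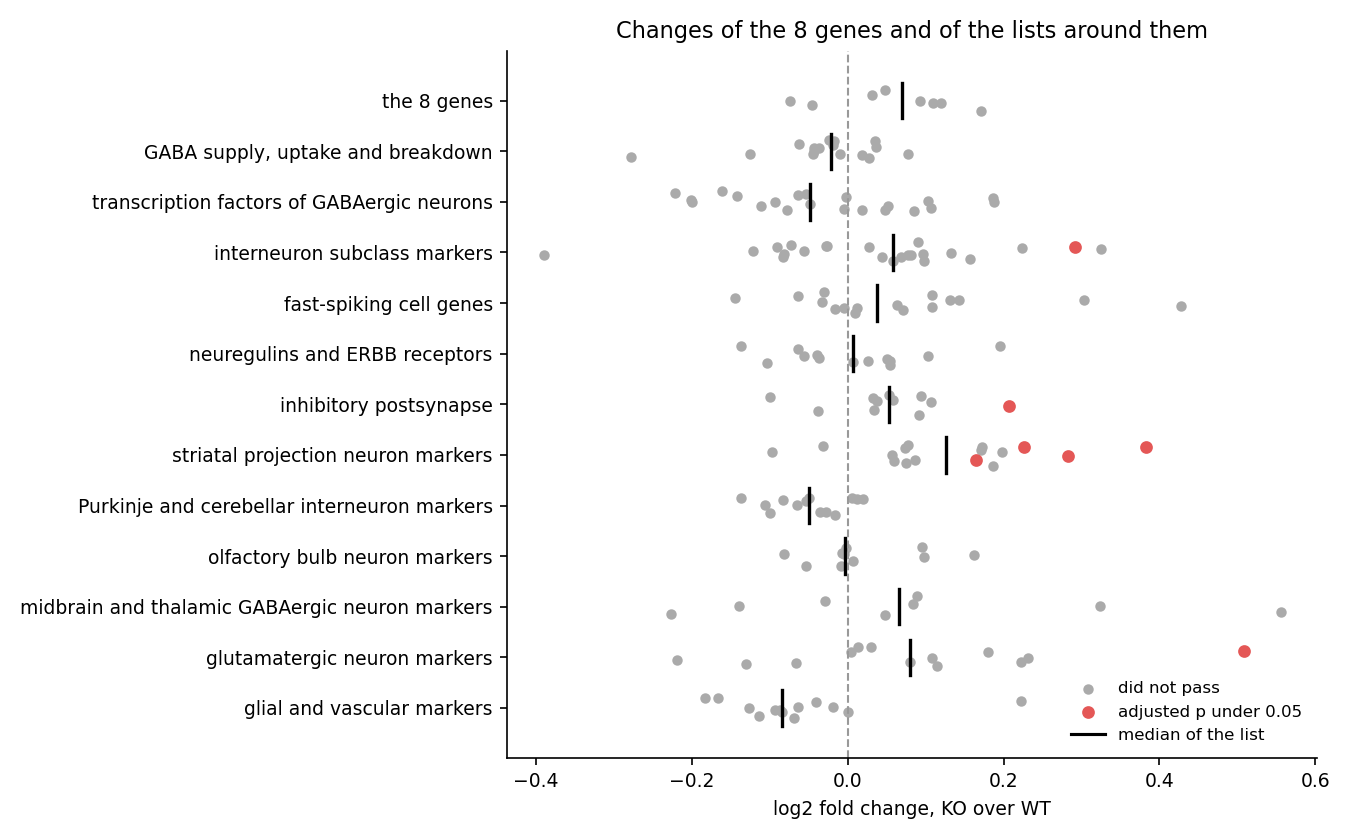
Log2 fold change of each tested gene by list, libraries labelled KO over those labelled WT; red points passed the threshold, grey points did not, and black bars are list medians. The 8 genes have a median of 0.07 and no red point, while striatal projection neuron markers have the most, 4, and a median of 0.13.

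Other GABAergic cell types contribute to the same transcripts, and their markers were read beside the members. Of 16 striatal projection neuron markers, 4 rose and 0 fell, against 1.14% and 0.289% of all tested genes. This list was drawn up with earlier results of these data known. In it, 14 changes were positive and the median log2 fold change was 0.13. The markers' summed level was 1554 to 1704 CPM in the libraries labelled WT and 1769 to 1828 CPM in those labelled KO, without overlap. Pdyn, the prodynorphin gene, was at 25.99, 27.6, 24.5 and 31.4 CPM against 39.3, 35.9, 33.0 and 34.9 CPM (log2 fold change 0.38, SE 0.08, adjusted p = 0.0118). Ppp1r1b, which encodes a phosphatase inhibitor of dopamine signalling, was at 222 ± 12.7 and 259 ± 13.7 CPM (SD, n = 4; log2 fold change 0.23, adjusted p = 0.0183). The dopamine receptor gene Drd1a went from 27.98 ± 2.40 to 33.9 ± 0.91 CPM (log2 fold change 0.28, adjusted p = 0.0326) and the adenylyl cyclase gene Adcy5 from 255 ± 9.28 to 286 ± 4.25 CPM (log2 fold change 0.17, adjusted p = 0.0345). The count depended on single libraries: it was 2 when WT replicate 1 or 2 was left out, 0 when WT replicate 3 was, 6 when WT replicate 4 was and 1 when KO replicate 3 was. The largest adjusted p with a library left out was 0.0652 for Pdyn, 0.0908 for Ppp1r1b, 0.153 for Drd1a and 0.141 for Adcy5. The part of striatal cells in the values of Gad1, Gad2 and Slc32a1 was not tested.

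None of the 13 Purkinje and cerebellar interneuron markers passed by edgeR, DESeq2 or limma-voom (1 at an unadjusted p under 0.05), and 10 of the 13 changes were negative, with a median log2 fold change of -0.05. Their sum was 3341 to 3761 CPM in the libraries labelled WT and 3351 to 3703 CPM in those labelled KO. Most of that sum was Itpr1 and Aldoc, at 1287 ± 82.2 and 1218 ± 37.3 CPM in the WT group (SD, n = 4). The sum therefore says little about the other markers, and these 2 were named after their values were seen. Lhx1, a transcription factor of Purkinje cells, had a log2 fold change of -0.11 (adjusted p = 0.661; -0.17 without KO replicate 2 and -0.06 without WT replicate 3). Over the 8 libraries, the median Pearson correlation of this list's log2 CPM with that of Pvalb was 0.487, with 12 of 13 positive, where the median over all genes was -0.01. For Lhx6 the same list gave a median of -0.28. A median as large was found for Lhx6 with the 16 striatal projection neuron markers, at 0.498 with 16 positive. The part of Purkinje cells in the values of Pvalb was not tested.

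Olfactory bulb neuron markers gave 0 calls out of 10 by edgeR, DESeq2 and limma-voom (0 at an unadjusted p under 0.05), with 4 positive changes and a median of -0.0038. The 2 with the lowest p were Calb2 (log2 fold change -0.08, adjusted p = 0.635) and Th (log2 fold change 0.10, adjusted p = 0.709). Calb2 came to -0.01 without WT replicate 3 and to -0.14 (unadjusted p = 0.0147, adjusted p = 0.259) without WT replicate 4, and Th to 0.19 and 0.02 without the same libraries. In 1 library, WT replicate 4, the DLX genes and most of the markers were low. WT replicate 4, the library with the least Dlx1 and Dlx2, was also the lowest of the 8 for 7 of the 10 markers, and its summed level was 449 CPM against 535, 544 and 568 CPM in the other libraries labelled WT and 474 to 542 CPM in those labelled KO. Cdhr1, a cadherin of mitral and tufted cells, was at 22.4 CPM there and at 37.3 to 47.0 CPM in the other WT libraries. Sp8, a transcription factor of bulb interneurons, was at 7.38 CPM there and at 9.87 to 11.9 CPM in the other 3. KO replicates 1 and 2 had the next lowest Dlx1, at 44.2 and 44.4 CPM, with marker sums of 542 and 474 CPM. The share of all genes that were lowest in WT replicate 4 was not worked out. All 10 markers correlated positively with Dlx1, Dlx2 and Gad1 over the 8 libraries, with median correlations of 0.570, 0.542 and 0.581. Over all genes the medians were 0.0029, -0.0048 and -0.01. For Gad1 a high median was not particular to the bulb list. It was 0.533 with the other whole brain markers, 0.420 with glutamatergic neuron markers and -0.22 with glial and vascular markers. WT replicate 4 was the lowest library for Gad1 as well, and these medians were not worked out without it. How much of the bulb each library contained is not given in the labels, and its part in these values was not tested.

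**Figure D5:**
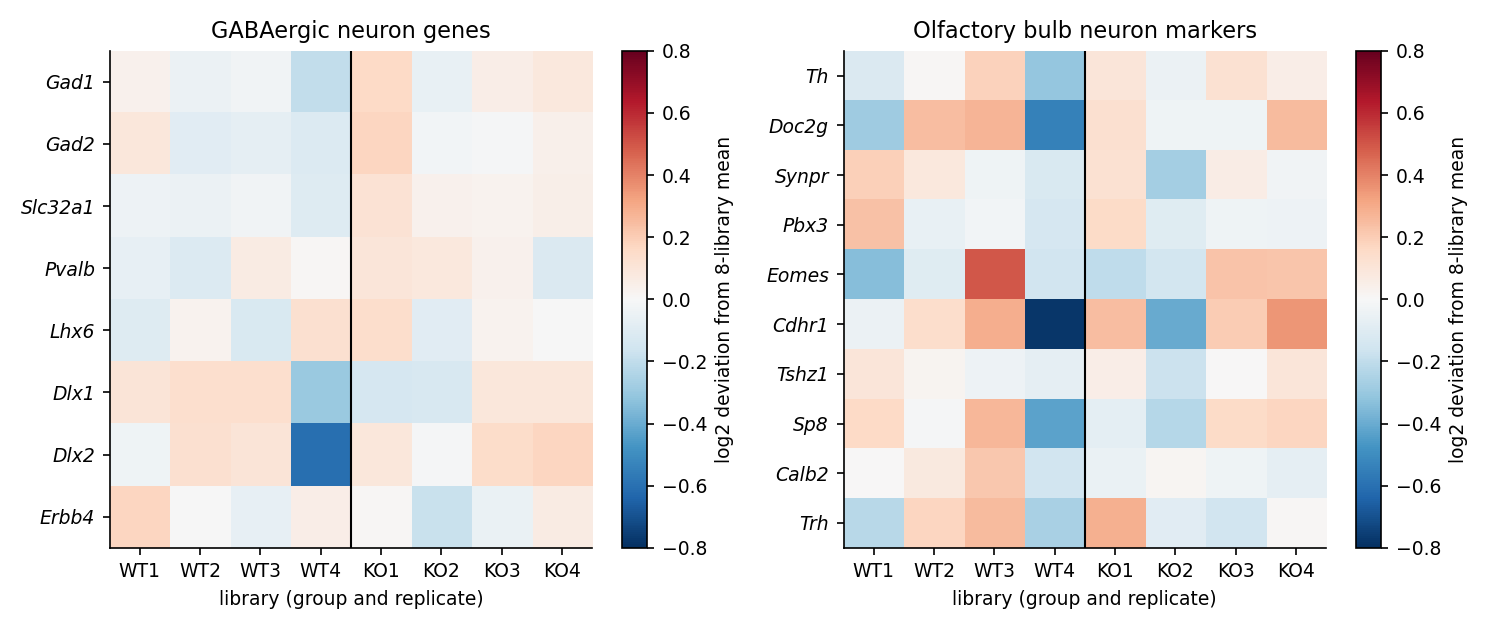
Deviation of log2 CPM from each gene's mean over the 8 libraries (colour scale from -0.8 to 0.8), for the 8 genes on the left and 10 olfactory bulb neuron markers on the right; the black line separates WT from KO libraries. The column of WT replicate 4 is the lowest for Dlx1, Dlx2 and 7 of the 10 bulb markers.

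Of the 8 midbrain and thalamic GABAergic markers, 0 passed by edgeR, DESeq2 or limma-voom (1 at an unadjusted p under 0.05). They include Ecel1 (log2 fold change 0.32, adjusted p = 0.144) and Sox14 (log2 fold change 0.56 at about 1 CPM, adjusted p = 0.422), and their median log2 fold change was 0.07. Markers of other brain cells had fitted changes of a size like that of Gad1. Glutamatergic neuron markers had 10 of 13 changes positive and a median of 0.08. In this list 1 gene rose (2 by DESeq2 and 2 without WT replicate 2), against 1.14% of all tested genes. It was Emx1, a homeobox gene of the dorsal forebrain, from 8.93 ± 0.53 to 12.7 ± 0.51 CPM (SD, n = 4, log2 fold change 0.51, adjusted p = 0.00337). Slc17a7, the vesicular glutamate transporter that is the excitatory counterpart of Slc32a1, was at 749 ± 45.6 and 812 ± 34.8 CPM (SD, n = 4; log2 fold change 0.11, adjusted p = 0.260), a change close in size to that of Slc32a1. Glial and vascular markers had 12 of 13 changes negative, a median of -0.08 and 0 calls by edgeR and limma-voom (5 at an unadjusted p under 0.05, and 1 by DESeq2). The DESeq2 call was Slc1a3, an astrocyte glutamate transporter (log2 fold change -0.13, adjusted p = 0.0880 by edgeR and 0.0199 by DESeq2), which also passed by edgeR without KO replicate 2 (adjusted p = 0.0487). Aqp4, the astrocyte water channel, had a log2 fold change of -0.17 (adjusted p = 0.220) and passed without KO replicate 1 (adjusted p = 0.0449). The summed level of the glial and vascular list was 6877 to 7201 CPM in the libraries labelled WT and 6423 to 7166 CPM in those labelled KO, and its part in the members' values was not tested.

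Among themselves, the members of GABA production varied together over the 8 libraries. The following correlations are of log2 CPM (prior count 2) over 8 libraries that share their group and their scaling, and are descriptions without a test. Of 28 pairs, 21 had a positive Pearson correlation and 6 were above 0.6. Gad1 and Gad2 gave 0.866 (Spearman 0.857), and 0.814 with the group means subtracted. Gad1 and Slc32a1 gave 0.841 (Spearman 0.738), and 0.725 to 0.928 with 1 library left out. The value was 0.391 without the 2 libraries farthest from the Gad1 median, WT replicate 4 and KO replicate 1. That choice narrows the range of Gad1, so it cannot show how far the correlation rests on those 2. For Gad2 and Slc32a1 the value was 0.747, and 0.925 without the 2 libraries farthest from the Gad2 median.

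The DLX pair correlated less without WT replicate 4, the lowest library for both genes. Dlx1 and Dlx2 correlated at 0.773 (Spearman 0.429) with all 8 libraries and at 0.375 without WT replicate 4, and Dlx2 with Gad1 at 0.757 and 0.277. For the DLX pair the value was 0.924 with the group means subtracted, and 0.527 without WT replicate 4 and KO replicate 1. Leaving out the lowest library narrows the range of these genes, so it cannot show how far a correlation rests on that library. Negative values were found for Pvalb with Erbb4 (-0.62, Spearman -0.60) and for Dlx1 with Lhx6 (-0.58, Spearman -0.67). The former was -0.51 without the 2 libraries farthest from the Erbb4 median, and the latter turned to 0.273 without those farthest from the Dlx1 median. Pvalb and Lhx6 gave 0.06.

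Among 12480 genes with a mean of at least 5 CPM, those whose log2 CPM followed each member most closely over the 8 libraries were as follows; each is the highest value found in a search over all of these genes. Gad1 was followed by Crhbp, a binding protein for corticotropin-releasing hormone that interneurons express (0.956), and by Zfp385b (0.954). Gad2 was followed by Got2, the mitochondrial aspartate aminotransferase, and Ncoa4, both at 0.974. For Slc32a1 the closest were Ogdhl (0.967) and Spsb1 (0.966). Like Slc32a1, they did not overlap between the groups (Ogdhl 99.5 to 102 and 108 to 113 CPM, Spsb1 at most 18.9 and at least 19.8 CPM). A choice by likeness to Slc32a1 favours such genes, and 4.28% of all tested genes were higher in KO libraries without overlap. With the group means subtracted, Ogdhl and Spsb1 ranked 21 and 52. Pvalb was followed by Timp4 (0.952) and Nedd8 (0.940), and Lhx6 by Top1mt (0.966) and 2510009E07Rik (0.955). The closest to Dlx1 were Plekha7 (0.969) and Vamp2, a synaptic vesicle protein (0.951), and the closest to Dlx2 were Dolk (0.979) and Shisa3 (0.963). Shisa3 shared the low value of WT replicate 4, at 3.43 CPM against 8.07 to 9.44 CPM in the other libraries labelled WT. Erbb4 was followed by Rap1b (0.973) and 1500017E21Rik (0.967). With the group means subtracted, 4 of these 16 genes stayed among the 2 closest to their member.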

How the data were processed

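Per the labels' protocols, brain RNA was taken up in Trizol, cleaned on columns and prepared with a stranded mRNA kit. The authors deposited expected counts per gene for 8 libraries, not scaled, of which 91.5% were whole within 0.001. GRCm38 (mm10), TopHat2 2.0.9 and edgeR are named, per the submitters' processing notes. Neither the counting program nor the strand it assumed is given in the sources used here.

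Counts were rounded, genes kept by filterByExpr (15902 of 17613; 4 are at 0 in all libraries) and sizes scaled by TMM. The test was the robust quasi-likelihood test of edgeR 4.0.16 in R 4.3.3, without covariates, and p was adjusted over the tested genes by Benjamini-Hochberg (threshold 0.05). Calls came to 228 genes, of which 182 were higher in KO libraries and 46 lower. The script was tested on simulated data. The common coefficient of variation beyond counting noise was 5.38%. Libraries of 1 group differed by more than sampling noise (chi-square over its degrees of freedom, 2.45 to 5.02), so each was kept as a sample.

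The members and the lists were chosen with earlier results of these data known. Named genes are the members, Uhrf2, every list gene past the threshold (otherwise the 2 with the lowest p of a list) and the 2 genes most correlated with each member; others are said to be chosen after their values were seen. Some genes that the rule takes are not reported by name. Gsx2, Gbx1, Btc and Ereg have no row in the table used here. Table symbols were matched to current names, and Insyn1 was read as 6030419C18Rik, its RefSeq synonym, after the table was seen. Lengths are those of the longest principal protein-coding transcript (GENCODE M21). Alternatives were other scaling factors, other filters, DESeq2 1.42.0, limma-voom (limma 3.58.1), a replicate block, leaving out each library, deposited totals in place of TMM, and subtraction of group means; exon-union lengths were added after seeing the data.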

Additional observations from a re-analysis of the deposited data

Results flagged for a closer look

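Of 108 groups of 4 libraries checked for a library far from the other 3, 7 (6.48%) had one, and chance gives about 1 in 20. Dlx1 in WT replicate 4 was at 39.56 CPM, against 52.05 to 53.39 CPM in the other libraries labelled WT. In KO replicate 2, the ratio of Slc32a1 to Gad1 per kilobase was 0.301, against 0.2741 to 0.2766 in the other 3, and Lhx1 was at 17.01 CPM, against 14.16 to 14.64 CPM. Tnfaip8l3 in KO replicate 1 was at 9.098 CPM, against 7.03 to 7.079 CPM. WT replicate 1 stood apart for Aqp4, at 284.3 CPM against 247.5 to 251.8 CPM, and for Kl, at 38.77 CPM against 29.17 to 30.43 CPM. Uhrf2 in WT replicate 2 was at 47.67 CPM, against 57.19 to 58.86 CPM.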

How the results depend on the processing

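The 8 members gave 0 calls under each of 15 alternatives, and 7 kept their direction in all of them. Lhx6 ranged from -0.0084 to 0.0818 (log2) with 1 library left out and was negative without WT replicate 3 (-0.0069) and KO replicate 1 (-0.0084). Over all genes, leaving out a library gave 110 to 324 calls, 96 to 247 higher and 14 to 77 lower. Calls in lists then ranged from 0 to 1 for interneuron subclass markers, for the inhibitory postsynapse and for lower glial markers, from 0 to 6 for striatal markers and from 1 to 2 for glutamatergic markers, and the median of the ERBB list from -0.019 to 0.0355. Whether the shared replicate numbers pair the libraries is not settled by these values. Same-numbered deviations correlated at 0.024 to 0.208, and 1 of 4 pairs passed 0.1. Of the 8 libraries, 5 correlated best with their own number. The main fit took the libraries as unpaired. The replicate block gave 495 calls (347 higher, 148 lower), with 1 higher and 1 lower fast-spiking gene, 8 higher striatal, 2 higher glutamatergic and 2 lower glial markers, and 0 members (lowest adjusted p = 0.122, Gad1). DESeq2 gave 1 higher fast-spiking, 2 higher glutamatergic and 1 lower glial gene. By level per length, Gad1 ranked 2 and Pvalb 1 in WT replicates 3 and 4 and KO replicate 2, and with exon-union lengths, and in KO replicate 2 Gad2 ranked 4 and Slc32a1 3. With group means subtracted, 12 correlations left the 2 closest: Crhbp 0.931 and Zfp385b 0.945 with Gad1, Got2 0.966 and Ncoa4 0.971 with Gad2, Ogdhl 0.905 and Spsb1 0.873 with Slc32a1, Timp4 0.947 and Nedd8 0.937 with Pvalb, 2510009E07Rik 0.955 with Lhx6, Vamp2 0.954 with Dlx1, and Rap1b 0.977 and 1500017E21Rik 0.961 with Erbb4.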
